A study of Prunus persica with 21 samples.

Results

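The genes described here are those of peach (Prunus persica) leaf blades whose transcript level was lower 1 h after either of 2 plant elicitor peptides, PpPep1 and PpPep2, than in leaves collected at time zero (t0). A member had a t0 mean of 1 to 800 CPM (the count scaled to the library total), a 1 h mean of at most 0.6 times the t0 mean with both peptides, and all 6 treated libraries below all 3 t0 libraries. The rule was met by 219 genes, and 1 of them, PRUPE_8G007800, was left out by name, which left 218 of the 27107 genes in the table. They were 1.41% of the 15509 genes with a t0 mean in that range. Because these 9 libraries chose the members, the members' levels at t0 and 1 h are given as a description with no test.

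Plant elicitor peptides are short fragments released from precursor proteins in injured or infected tissue. They bind receptor kinases at the cell surface and set off pattern-triggered immunity, in which calcium influx and kinase cascades switch on defence genes within the first hour. Genes for growth and development are commonly expressed at lower levels while such a response is under way.

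Juvenile plants of the cultivar Big Top, grown in vitro and moved to a glasshouse, were sprayed on both leaf surfaces with 100 nM PpPep1 or 1000 nM PpPep2. Blades without the central vein were collected 1, 24 and 48 h later, and polyadenylated RNA of 3 biological replicates per group was sequenced in 7 groups. One label of the t0 samples calls them mock and the design text calls them untreated. The peptides differed in concentration as well as in sequence, so these cannot be told apart. The table holds no leaves sprayed without peptide at 1, 24 or 48 h, so the peptide cannot be told apart from the spraying or from the elapsed time. The paper did measure mock plants at these times by RT-qPCR, for a selected set of genes, and reports no significant change.

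Before any result, the column headers had to be checked. The column totals and the number of genes that held 25% of the reads were set against the study's own mapping statistics. Each of the 21 columns matched a library, 12 of them the library in their own header and 9 another one. The columns headed p1t48 matched PpPep2 1 h, those headed p2t1 matched PpPep2 24 h, and those headed p2t24 matched PpPep1 48 h. These 3 groups carry their header in parentheses below, since the submitted header and the match disagree about what they are. Without the columns headed p1t48, the PpPep1 condition alone picked 377 genes, all 218 members among them.

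Library totals ran between 33231519 and 59317510 counts. Of the 6 libraries at 1 h, 1 PpPep1 library was sequenced on the flowcells of the t0 libraries, 4 were on another flowcell and 1 was on both. On the t0 flowcells alone, the PpPep1 library had a median log2 ratio to t0 of -0.97. On the other flowcell, the mean of the 4 libraries at 1 h was below the mean of the 3 PpPep1 24 h libraries for 211 of the 218 members, by a median of -0.88 on the log2 scale. Both values rest on 1 h libraries that the rule used, so they describe the members and do not test the flowcells.

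At 1 h the median member stood at 50.04% of its t0 mean with PpPep1 and at 47.5% with PpPep2 (p1t48). On the log2 scale of the ratio to t0, the library medians were -0.97, -0.93 and -1.14 with PpPep1 and -1.08, -0.92 and -1.24 with PpPep2 (p1t48), against 0.07, -0.08 and -0.04 in the t0 libraries. Every treated library was thus far from the t0 libraries, as the rule required. All 3 libraries lay below all 3 t0 libraries for 35.5% of the genes in the t0 range with PpPep1 and for 31.3% with PpPep2 (p1t48). Over the 15509 genes in the t0 range, the median log2 ratio was -0.14 with PpPep1 and -0.15 with PpPep2 (p1t48), so a part of each member's ratio was shared by most genes on this scale. Scaling by TMM, the trimmed mean of M values, in place of the library total left 151 members. Members together held 2526 to 3015 CPM with PpPep1 and 2564 to 2924 CPM with PpPep2 (p1t48), against 5142 to 5855 CPM at t0.

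**Figure D1:**
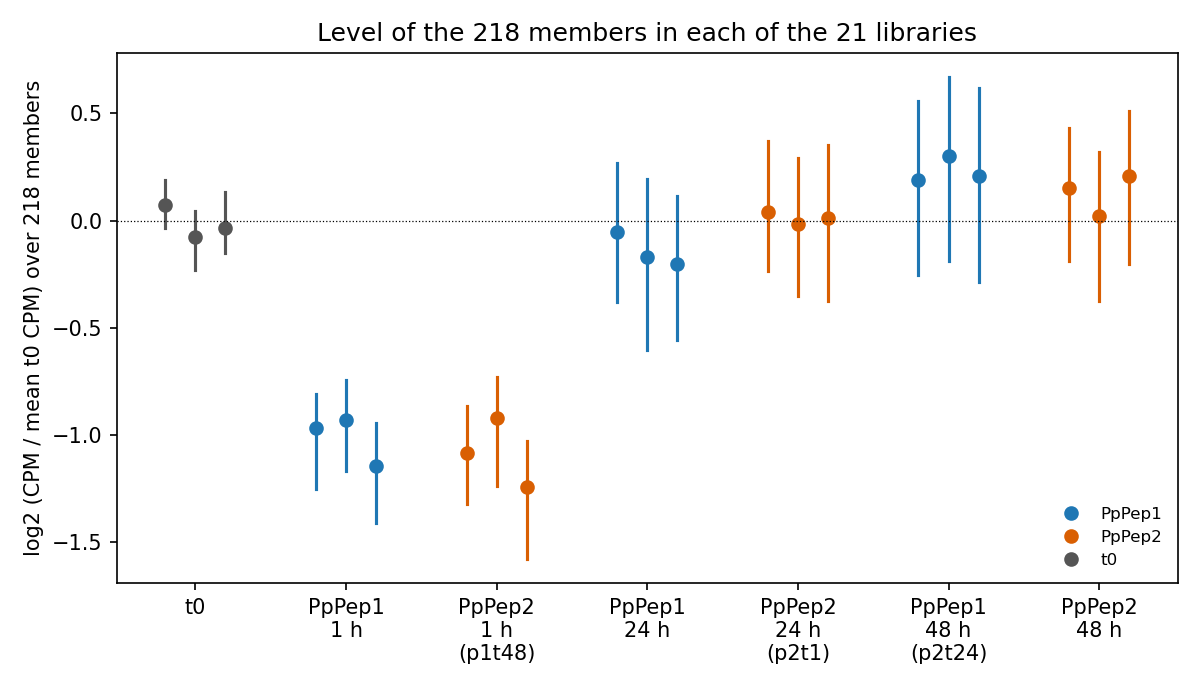
Level of the 218 members in each of the 21 libraries, as the log2 ratio of a library's CPM to the mean t0 CPM (y axis), by group (x axis, headers in parentheses where the header and the match disagree). Points are medians over members and lines run between the quartiles. The 6 libraries at 1 h have medians between -1.24 and -0.92, and the 12 later libraries between -0.20 and 0.30.

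Most of these decreases were modest. The mean was at or under 0.5 times t0 for 109 members with PpPep1 and for 129 with PpPep2 (p1t48), and at or under 0.25 times t0 for 11 and 9 members. The same rule turned round, for genes at least 1/0.6 times t0 with all 6 libraries above t0, picked 746 genes.

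At the edge of the rule, the 3 members just inside had the larger of their ratios at 59.7% to 59.96% of t0. The 3 genes just outside were at 60.04% to 60.07%. The DUF506 protein gene PRUPE_8G233100 was the closest to the limit, at 59.96% of t0 with PpPep1.

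Levels at t0 ran between 1.02 and 589 CPM, with a median of 10.4 CPM. The median coefficient of variation among 3 replicates was 16.0% with PpPep1 at 1 h and 19.8% with PpPep2 at 1 h (p1t48), against 15.3% at t0. PRUPE_5G195200, which no source used here pairs with a name, had the lowest ratio to t0 with PpPep2 (p1t48), 0.0342, and a ratio of 0.212 with PpPep1, where other members went down to 0.142. It had 2.19, 4.59 and 4.56 CPM with PpPep1 and 0.712, 1.01 and 0.105 CPM with PpPep2 (p1t48), against 5.85, 35.4 and 12.2 CPM at t0. Its t0 libraries spread widely, and the PpPep2 (p1t48) libraries were all lower than the PpPep1 ones. Over all members the PpPep2 (p1t48) mean was the lower for 121 of 218 members, with a median log2 difference of -0.06 from PpPep1. All 3 PpPep2 (p1t48) libraries lay below all 3 PpPep1 libraries for 16 members, against 11.6% of the genes in the t0 range, and above them for 11, against 9.93%.

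The sources paired 8 members with a gene name and placed a further member in a family. Of these 9, 7 are transcription factors or belong to a transcription factor family, 1 is an ion channel and 1 is a protein with the domain DUF506. The share of transcription factors among all genes that these sources name was not counted. The 9 therefore do not describe the other members, which have no name. Names from the study's network table stand for an orthologous group, so they give the family more surely than the single gene. For WRKY44 and CDF2 the Arabidopsis identifier in the same row of that table belongs to another gene of the family, so only the family is taken from these names. The roles given below are those known in Arabidopsis, or in maize where so stated.

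The first 3 members belong to the homeobox, WRKY and MYB families of transcription factors. PRUPE_3G067200 encodes a homeobox-leucine zipper protein named GLABRA 2, which in Arabidopsis specifies trichomes and the hairless files of the root epidermis. It had 23.5, 22.3 and 20.2 CPM with PpPep1 1 h and 21.1, 22.8 and 19.3 CPM with PpPep2 1 h (p1t48), against 54.4, 37.8 and 45.2 CPM at t0. All 6 treated libraries were between 19.3 and 23.5 CPM, while the t0 libraries spread more. The 24 h libraries had 37.7, 34.5 and 25.5 CPM with PpPep1 and 41.7, 36.8 and 37.6 CPM with PpPep2 (p2t1). The 48 h libraries had 53.8, 66.4 and 57.1 CPM with PpPep1 (p2t24) and 53.5, 53.4 and 55.3 CPM with PpPep2. The 24 h libraries lay between those at 1 h and the highest at t0, and those at 48 h lay above all 24 h libraries. The increase at 48 h over 24 h was 0.82 on the log2 scale for PpPep1 (SE 0.12, adjusted p = 3.65e-05, the quasi-likelihood test of edgeR, adjusted by Benjamini and Hochberg's method over all genes tested) and 0.53 for PpPep2 (SE 0.12, adjusted p = 0.0027 from the same test). Leaving out 1 library gave an adjusted p of up to 0.0157 for PpPep2.

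PRUPE_6G244300 was paired with the name WRKY44 and is taken here as a WRKY transcription factor, a family with many members in defence and some in development. It had 42.4, 38.7 and 38.5 CPM with PpPep1 1 h and 40.0, 44.7 and 39.9 CPM with PpPep2 1 h (p1t48), against 79.7, 68.3 and 74.0 CPM at t0. The 24 h libraries had 71.7, 67.5 and 64.2 CPM with PpPep1 and 76.0, 72.5 and 74.97 CPM with PpPep2 (p2t1), which overlapped the t0 libraries. The 48 h libraries had 89.7, 98.4 and 89.0 CPM with PpPep1 (p2t24) and 88.7, 83.0 and 95.3 CPM with PpPep2, all above t0. Its replicates were among the tightest of the named members, with an SE of 0.06 on the log2 scale. The log2 fold change at 48 h over 24 h was 0.41 for PpPep1 (adjusted p = 8.74e-05, same edgeR test) and 0.30 for PpPep2 (adjusted p = 0.00184, same edgeR test). The PpPep2 value had an adjusted p of 0.0175 in a fit of its 2 groups alone.

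PRUPE_5G065500 was paired with Anthocyanin regulatory C1, the name of a maize MYB protein that switches on anthocyanin genes in kernels, and is taken here as a MYB gene. It had 15.0, 16.8 and 16.2 CPM with PpPep1 1 h and 16.5, 18.5 and 14.1 CPM with PpPep2 1 h (p1t48), against 32.8, 28.9 and 33.7 CPM at t0. The 24 h libraries had 27.0, 19.99 and 28.3 CPM with PpPep1 and 26.6, 26.6 and 26.2 CPM with PpPep2 (p2t1), all 6 below the t0 libraries. The 48 h libraries had 37.4, 42.1 and 33.4 CPM with PpPep1 (p2t24) and 34.5, 34.8 and 35.8 CPM with PpPep2. The log2 fold change at 48 h over 24 h was 0.55 for PpPep1 (SE 0.11, adjusted p = 0.000706, same edgeR test) and 0.45 for PpPep2 (SE 0.11, adjusted p = 0.00435). In a fit of 2 groups alone the PpPep1 value had an adjusted p of 0.0134. The PpPep2 value had adjusted p between 0.011 and 0.0204 when any of its 6 libraries was left out.

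**Figure D2:**
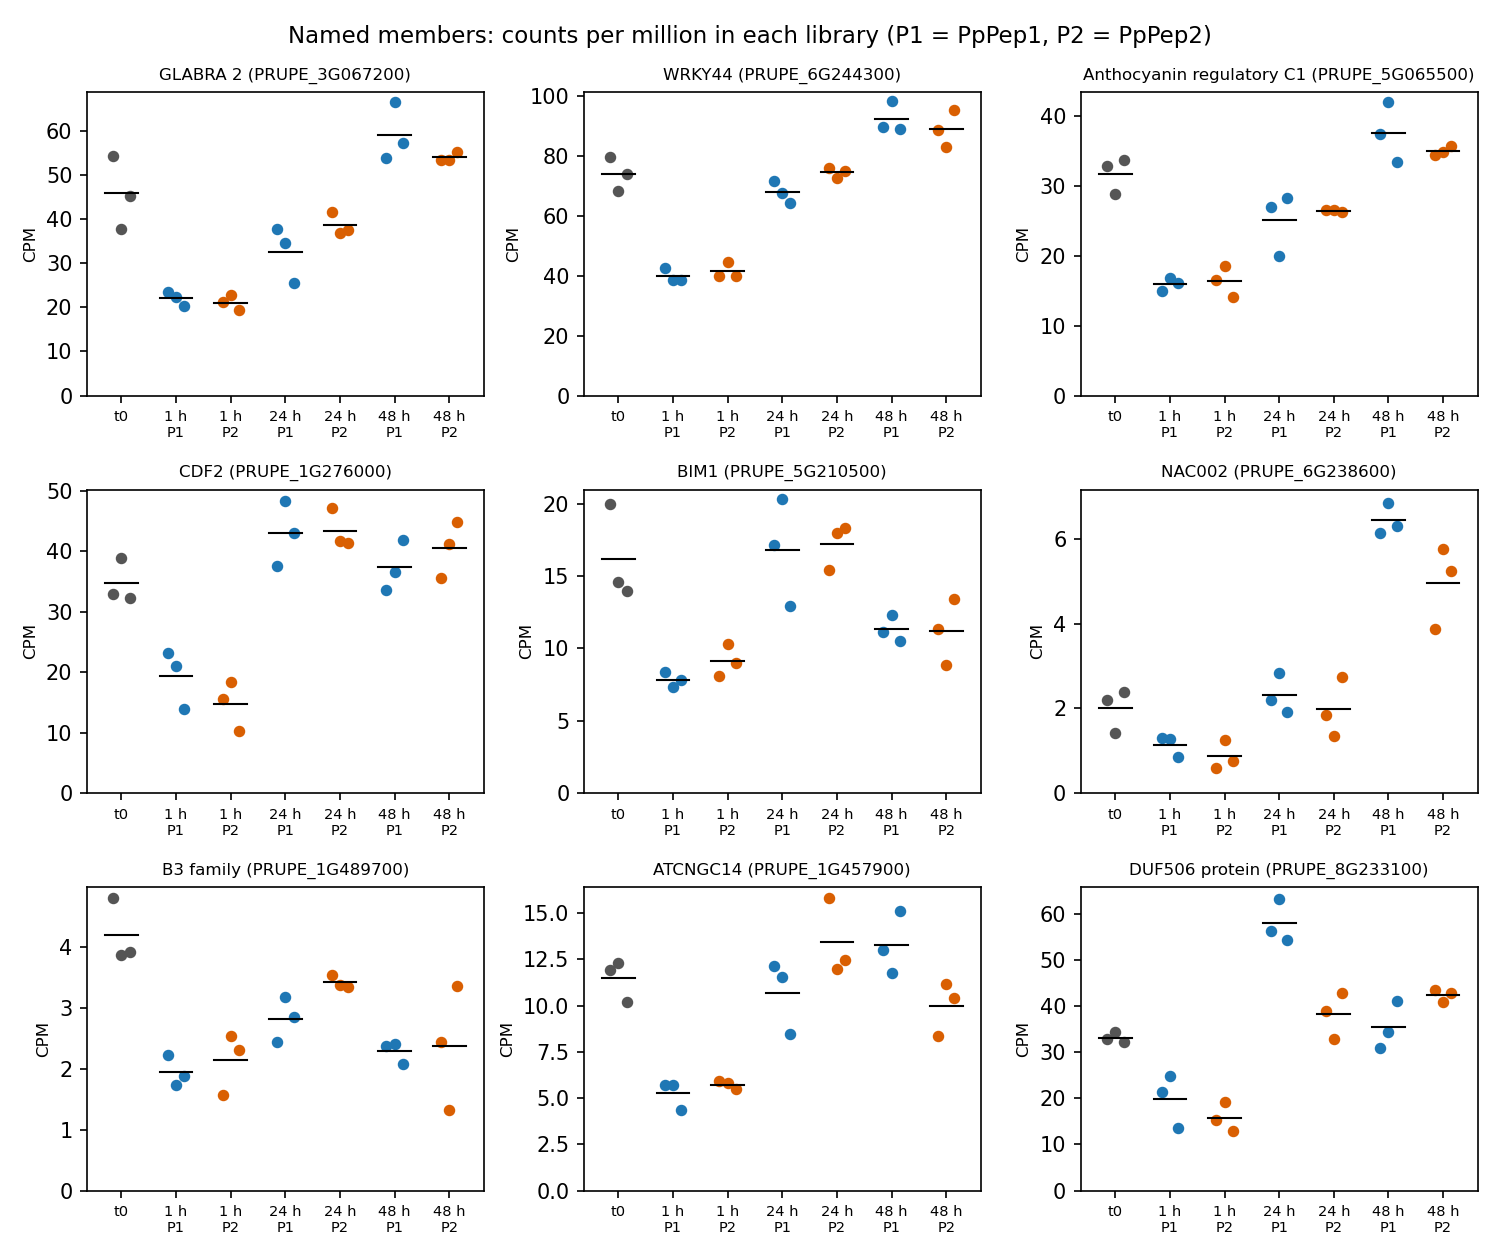
CPM of the 9 members with a name or family (y axes, from 0) in each library, by time and peptide (x axes, P1 for PpPep1 and P2 for PpPep2, with 1 h P2 headed p1t48, 24 h P2 headed p2t1 and 48 h P1 headed p2t24). Points are libraries and bars are means of 3. NAC002 has its highest libraries at 48 h, between 3.88 and 6.85 CPM, and the BIM1 libraries at 48 h, between 8.85 and 13.4 CPM, are all below t0.

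The next 3 members carry names of the DOF, bHLH and NAC families. PRUPE_1G276000 was paired with the name CDF2 and is taken here as a gene of the DOF family of zinc finger transcription factors. It had 23.1, 21.1 and 13.9 CPM with PpPep1 1 h and 15.5, 18.4 and 10.3 CPM with PpPep2 1 h (p1t48), against 32.9, 39.0 and 32.2 CPM at t0. Its 12 later libraries lay between 33.6 and 48.4 CPM, above the lowest 2 t0 libraries, and none of the 4 contrasts among them passed (adjusted p between 0.362 and 0.892, edgeR).

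PRUPE_5G210500 is named BIM1 in the count table, after a bHLH protein that acts with BES1 in brassinosteroid signalling. It had 8.37, 7.31 and 7.78 CPM with PpPep1 1 h and 8.07, 10.3 and 9.02 CPM with PpPep2 1 h (p1t48), against 19.99, 14.6 and 13.98 CPM at t0. At 24 h it had 17.2, 20.3 and 12.96 CPM with PpPep1 and 15.4, 17.97 and 18.3 CPM with PpPep2 (p2t1), around the t0 libraries. At 48 h it had 11.1, 12.3 and 10.5 CPM with PpPep1 (p2t24) and 11.3, 8.85 and 13.4 CPM with PpPep2, all below t0. At 48 h over 24 h it fell by 0.61 on the log2 scale for PpPep1 (SE 0.15, adjusted p = 0.0055, edgeR) and by 0.58 for PpPep2 (SE 0.15, adjusted p = 0.0092, edgeR). Neither was stable: leaving out 1 library gave adjusted p of up to 0.0415 for PpPep1 and 0.0616 for PpPep2.

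PRUPE_6G238600 was paired with NAC002, a NAC transcription factor of abscisic acid and stress responses. It had 1.29, 1.28 and 0.84 CPM with PpPep1 1 h and 0.59, 1.25 and 0.76 CPM with PpPep2 1 h (p1t48), against 2.21, 1.42 and 2.376 CPM at t0. At 24 h it had 2.19, 2.84 and 1.90 CPM with PpPep1 and 1.84, 1.34 and 2.74 CPM with PpPep2 (p2t1), around the t0 libraries. At 48 h it had 6.14, 6.85 and 6.31 CPM with PpPep1 (p2t24) and 3.88, 5.76 and 5.24 CPM with PpPep2. Each of the 6 libraries at 48 h was above every other library. The increase at 48 h over 24 h was 1.44 on the log2 scale for PpPep1 (SE 0.25, adjusted p = 0.000283, edgeR) and 1.40 for PpPep2 (SE 0.25, adjusted p = 0.000557, edgeR), and it kept an adjusted p under 0.01 when any library was left out. This was the one named member called in both contrasts.

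PRUPE_1G489700, of the B3 family of DNA-binding proteins, did not return within the t0 range in any later group. It had 2.24, 1.74 and 1.88 CPM with PpPep1 1 h and 1.57, 2.55 and 2.31 CPM with PpPep2 1 h (p1t48), against 4.82, 3.88 and 3.93 CPM at t0. Its 6 libraries at 24 h lay between 2.45 and 3.54 CPM, and its 6 libraries at 48 h between 1.32 and 3.37 CPM. All 12 were under the lowest t0 library.

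The channel gene PRUPE_1G457900 is named ATCNGC14, after a cyclic nucleotide-gated calcium channel of root hair growth and root bending. It had 5.72, 5.71 and 4.36 CPM with PpPep1 1 h and 5.91, 5.81 and 5.47 CPM with PpPep2 1 h (p1t48), against 11.9, 12.3 and 10.2 CPM at t0. Its 12 later libraries lay between 8.37 and 15.8 CPM, around the t0 libraries, and no contrast among them passed (adjusted p between 0.0803 and 0.503, edgeR).

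PRUPE_8G233100, the DUF506 protein gene, had 21.4, 24.7 and 13.6 CPM with PpPep1 1 h and 15.2, 19.1 and 12.9 CPM with PpPep2 1 h (p1t48), against 32.9, 34.4 and 32.3 CPM at t0. At 24 h it had 56.2, 63.3 and 54.4 CPM with PpPep1 and 38.9, 32.9 and 42.8 CPM with PpPep2 (p2t1). All 3 PpPep1 libraries at 24 h were above every other library of this gene, but the log2 difference of 0.70 between PpPep1 and PpPep2 (p2t1) did not pass (SE 0.17, adjusted p = 0.0606, edgeR). With PpPep1 it was lower at 48 h (p2t24) than at 24 h, with a log2 fold change of -0.75 (SE 0.17, adjusted p = 0.00262, edgeR). Leaving out 1 library gave an adjusted p of up to 0.0169.

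By 24 h the members as a group were back near t0, with a broad spread. The median log2 ratio to t0 was -0.14 with PpPep1 at 24 h (library medians -0.05, -0.17 and -0.20) and 0.03 with PpPep2 at 24 h (p2t1, library medians 0.04, -0.02 and 0.01). At 48 h it was 0.24 with PpPep1 (p2t24, library medians 0.19, 0.30 and 0.21) and 0.14 with PpPep2 (library medians 0.15, 0.02 and 0.21). The t0 libraries themselves had medians between -0.08 and 0.07. Over all genes in the t0 range the medians were -0.09, 0.00, -0.03 and -0.02 in the same order of groups. With the 377 genes of the PpPep1 condition alone, the medians were -0.19, -0.051, 0.13 and 0.089.

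In each later group some members lay below the t0 libraries, some among them and some above, as did all genes in the t0 range. All 3 libraries lay below all 3 t0 libraries for 65 members with PpPep1 at 24 h, against 20.7% of genes in the t0 range, that is 29.8% of members. The count was 35 members with PpPep2 at 24 h (p2t1), or 16.1%, against 9.66%. It was 40 members with PpPep1 at 48 h (p2t24), or 18.3%, against 26.4%, and 42 with PpPep2 at 48 h, or 19.3%, against 20.6%. So the share of members below t0 exceeded that of all genes at 24 h but not at 48 h. In the opposite direction, all 3 libraries lay above all 3 t0 libraries for 32 members with PpPep1 at 24 h, or 14.7%, against 9.05%, and for 43 members with PpPep2 at 24 h (p2t1), or 19.7%, against 11.9%. At 48 h this held for 88 members with PpPep1 (p2t24), or 40.4%, against 23.3%, and for 63 members with PpPep2, or 28.9%, against 19.2%. These shares have no test, because the t0 libraries were used to choose the members. Among the later groups, only PpPep2 24 h (p2t1) was sequenced on the flowcells of the t0 libraries. For the others, here and in the medians above, a difference from t0 cannot be told apart from the flowcell.

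**Figure D3:**
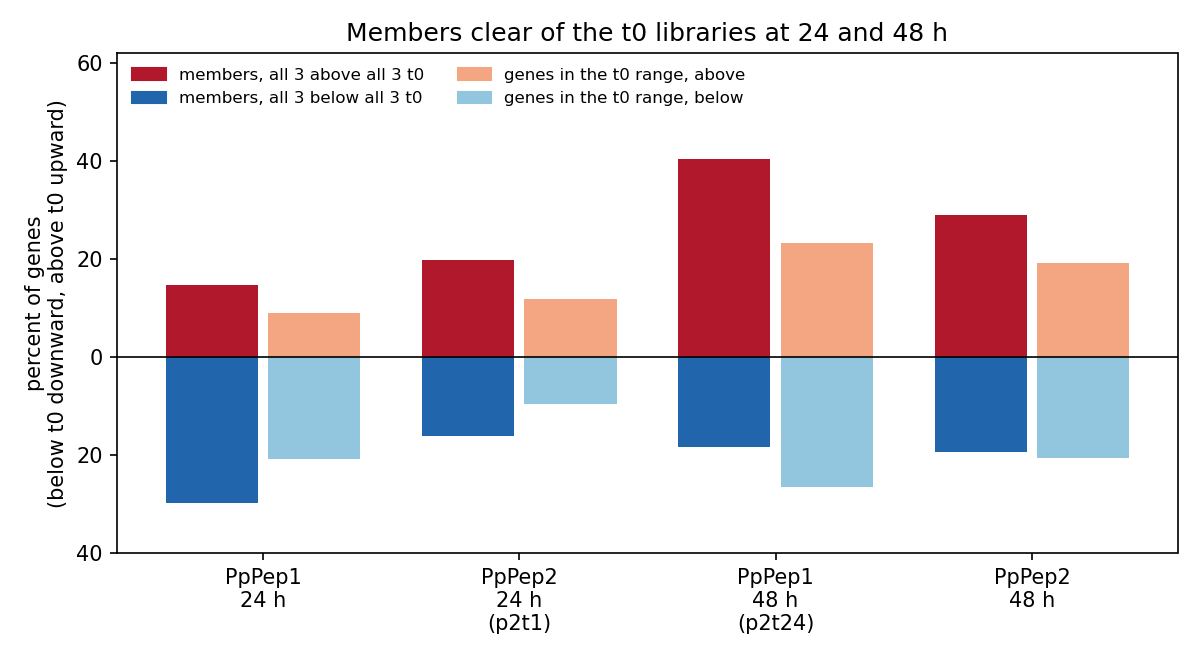
Percent of genes (y axis, below t0 drawn downward and above t0 upward) with all 3 libraries of a later group (x axis) clear of all 3 t0 libraries, for the 218 members (dark bars) and for the 15509 genes in the t0 range (pale bars). Members above t0 reach 40.4% with PpPep1 at 48 h (p2t24), against 23.3% of all genes.

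Over the whole course, 15 of the 218 members (6.88%) were below t0 in all 4 later groups, against 3.24% of the genes in the t0 range, and PRUPE_1G489700 was among them. A further 14 (6.42%) were above t0 in all 4, against 2.72%, and 38 (17.4%) were clear of t0 in none of the 4, against 31.8%. In all, 128 members (58.7%) were below t0 in no later group, a share close to the 60.3% of all genes in the range. At 24 h, 27 members (12.4%) were below t0 with both peptides, against 6.94%. With PpPep1 alone this held for 38 members (17.4%), against 13.7%, and with PpPep2 (p2t1) alone for 8 (3.67%), against 2.71%. These shares have no test either, and the same limit from the flowcells holds for them.

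The peptides were compared at 24 and 48 h between groups that the rule did not use. The spread was estimated over all 21 libraries, those that chose the members among them, so the tests are not fully separate from the choice. No member was called different between PpPep1 and PpPep2 (p2t1) at 24 h, against 0.0377% of 18586 genes, and 60 of the 218 members had an unadjusted p under 0.05, against 15.3% of genes (edgeR). A gene was called at an adjusted p under 0.01 and a log2 fold change beyond 1. With DESeq2, 1 member was called, higher with PpPep1, against 0.329% of genes. The median log2 difference of members was -0.04, with a median SE of 0.19, and the 95% interval lay within 1 log2 unit for 167 of 218 members. The smallest adjusted p, 0.0358 in edgeR, was that of PRUPE_3G180400. It had 8.52, 8.60 and 8.54 CPM with PpPep1 at 24 h, against 14.1, 14.3 and 16.998 CPM with PpPep2 (p2t1). The 24 h groups were also sequenced on different flowcells, which cannot be told apart from the peptide.

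At 48 h, where both groups shared their flowcells, no member was called different between PpPep1 (p2t24) and PpPep2, against 0.00538% of genes by edgeR and 0.0091% by DESeq2. Of the 218 members, 49 had an unadjusted p under 0.05, against 10.4% of genes (edgeR), and the smallest adjusted p was 0.135. The median log2 difference was 0.10, with 138 members higher with PpPep1 (p2t24), and the 95% interval lay within 1 log2 unit for 182 of 218 members.

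**Figure D4:**
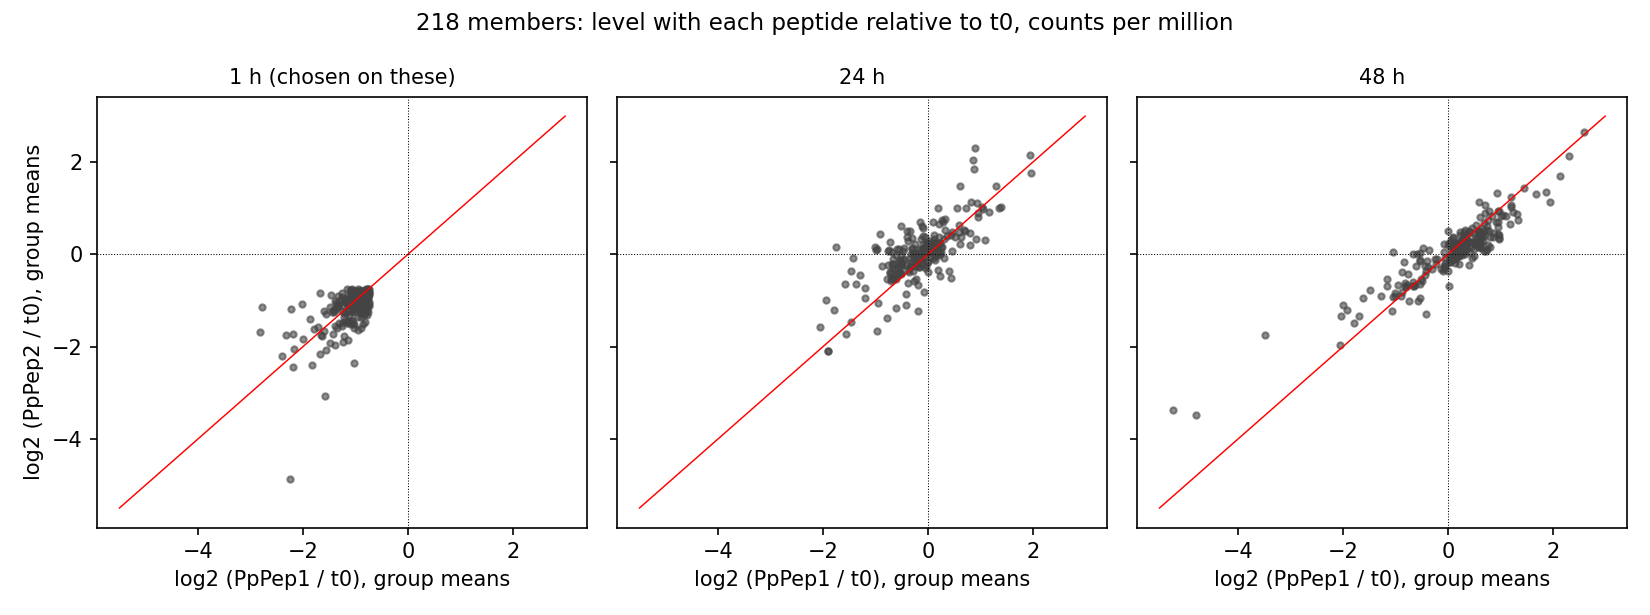
Log2 ratio of the group mean CPM to the t0 mean for each of the 218 members with PpPep1 (x axes) and PpPep2 (y axes) at 1, 24 and 48 h, where the line marks equal ratios and both axes share the t0 libraries. Members lie at or under -0.74 on both axes at 1 h, by choice, and spread around 0 later, with medians of -0.14 and 0.03 at 24 h and 0.24 and 0.14 at 48 h.

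Between 24 and 48 h more genes were called than between the peptides, among all genes as well as among the members. With PpPep1, 25 members were called at 48 h (p2t24) over 24 h, or 11.5%, against 3.59% of all genes. Of these 14 were higher, against 1.79% of genes, and 11 lower, against 1.8%. By adjusted p alone, 68 members passed, or 31.2%, against 16.9% of genes, with 53 higher, against 9.14%, and 15 lower, against 7.8%. With PpPep2, 8 members were called at 48 h over 24 h (p2t1), or 3.67%, a share near the 2.28% of all genes. Of these 5 were higher, against 1.05% of genes, and 3 lower, against 1.23%. By adjusted p alone, 33 members passed, or 15.1%, against 12.5% of genes, with 27 higher, against 6.62%, and 6 lower, against 5.89%. The median log2 fold change of members was 0.34 with PpPep1 and 0.10 with PpPep2, against 0.02 and 0.01 for all genes tested. All 48 h libraries were sequenced on other flowcells than the 24 h libraries, so the time and the flowcell cannot be told apart.

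The 2 contrasts share no library. They called 5 members in the same direction, 20% of the 25 and 62.5% of the 8, of which 2 were higher and 3 lower. The overlap among all genes called was not counted, so this overlap cannot be read as a trait of the members. In both contrasts the flowcells also differed between 24 and 48 h. The difference of the 2 contrasts, tested as an interaction, called no member, with a smallest adjusted p of 0.0873 (edgeR), and no gene of the 18586. At an unadjusted p under 0.05 the interaction held for 51 of the 218 members, against 10.3% of all genes (edgeR). Of the 28 members called in either contrast, the 17 that were higher had median ratios to t0 of 0.63 with PpPep1 24 h and 0.99 with PpPep2 24 h (p2t1), and of 1.73 with PpPep1 48 h (p2t24) and 1.80 with PpPep2 48 h. The 11 that were lower had median ratios of 1.07 with PpPep1 24 h and 1.05 with PpPep2 24 h (p2t1), and of 0.49 with PpPep1 48 h (p2t24) and 0.56 with PpPep2 48 h. The 28 were sorted by the direction of their calls, so the order of the 24 and 48 h ratios largely follows from that choice.

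PRUPE_4G084800 had the smallest adjusted p of the members in the PpPep2 contrast and passed in both. It had 5.34, 7.31 and 3.69 CPM with PpPep1 1 h and 3.79, 3.93 and 2.55 CPM with PpPep2 1 h (p1t48), against 10.8, 16.1 and 11.4 CPM at t0. At 24 h it had 54.1, 45.6 and 47.7 CPM with PpPep1 and 43.8, 57.9 and 70.3 CPM with PpPep2 (p2t1). At 48 h it had 7.38, 8.26 and 6.06 CPM with PpPep1 (p2t24) and 5.69, 7.74 and 11.5 CPM with PpPep2. The 24 h libraries thus stood above all others, and 5 of the 6 libraries at 48 h were below all t0 libraries. At 48 h over 24 h it fell by 2.80 on the log2 scale for PpPep1 (SE 0.27, adjusted p = 2.92e-06, edgeR) and by 2.72 for PpPep2 (SE 0.27, adjusted p = 4.99e-06, edgeR).

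PRUPE_3G180400 and PRUPE_1G235800 moved the other way. PRUPE_3G180400 had the smallest adjusted p of the members in the PpPep1 contrast, with 25.8, 27.7 and 23.7 CPM at 48 h (p2t24), against 8.52, 8.60 and 8.54 CPM at 24 h. Its log2 fold change was 1.55 for PpPep1 (SE 0.16, adjusted p = 1.41e-06, edgeR) and 0.81 for PpPep2 (SE 0.15, adjusted p = 0.00073, edgeR). PRUPE_1G235800 had 61.03, 63.2 and 57.6 CPM with PpPep1 1 h, against 153, 118 and 162 CPM at t0. Its mean with PpPep2 1 h (p1t48) was 80.2 CPM, a smaller decrease. With PpPep2 it had 218, 406 and 327 CPM at 48 h, against 154, 79.5 and 127 CPM at 24 h (p2t1). Its log2 fold change was 1.45 for PpPep2 (SE 0.26, adjusted p = 0.000882, edgeR), while the value of 0.89 for PpPep1 had an adjusted p of 0.017. In a fit of the 2 PpPep2 groups alone its adjusted p was 0.0284.

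The gene families the study had paired with identifiers were short lists. Members were 1.41% of the genes in the t0 range, so such lists cannot show whether members are few or many in a family. These lists are core genes that the study picked on the same samples, so their direction is not independent evidence. Of 25 homeobox genes, GLABRA 2 was the single member. Of the other 24, 6 had an adjusted p under 0.01 and a lower level with PpPep1 1 h and 7 with PpPep2 1 h (p1t48), and none had a higher level at an unadjusted p under 0.05 (edgeR). By adjusted p alone, 3.94% of all genes were lower with PpPep1 1 h and 4.27% with PpPep2 1 h (p1t48). The median log2 fold change of these 24 was -0.32 with PpPep1 and -0.41 with PpPep2 (p1t48), against -0.02 and -0.03 for all genes tested.

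Of 9 B3 family genes, PRUPE_1G489700 was the single member. None of the other 8 had an adjusted p under 0.01 at 1 h with either peptide, and 4 with PpPep1 and 2 with PpPep2 (p1t48) were lower at an unadjusted p under 0.05 (edgeR). None of 9 auxin response factor genes was a member, with list medians of -0.48 with PpPep1 and -0.47 with PpPep2 (p1t48). At an adjusted p under 0.01, 2 of them were lower with PpPep1 and 3 with PpPep2 (p1t48) (edgeR). At an unadjusted p under 0.05, 9 were lower with PpPep1 and 8 with PpPep2 (p1t48), and none was higher (edgeR). None of 14 GRAS genes and none of 26 WRKY genes on the lists was a member, and PRUPE_6G244300 is not on the WRKY list. At an adjusted p under 0.01, 10 of the 14 GRAS genes and 22 of 25 tested WRKY genes were higher with each peptide at 1 h (edgeR), with medians of 0.76 and 2.13 with PpPep1 and 0.62 and 2.46 with PpPep2 (p1t48). The 1 cluster of its network that the study selected as most dynamic held 5 members among 192 genes. Members were 1.41% of the genes in the t0 range. The 5 are the genes named CDF2, NAC002, WRKY44, C1 and the DUF506 gene. Of the cluster's 186 tested genes that are no members, 108 were called higher with each peptide at 1 h. The shares of all genes were 5.44% for PpPep1 and 6.18% for PpPep2 (p1t48). The cluster is not independent evidence of this direction.

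Markers of the epidermis were checked because 1 of them is a member. They are homeobox genes, and the homeobox list was picked on the same samples, so their direction at 1 h is not independent evidence. The homeobox genes ANTHOCYANINLESS 2, HDG2, HDG5, PROTODERMAL FACTOR 2 and GLABRA 2 summed to 122 to 132 CPM with PpPep1 1 h and 112 to 139 CPM with PpPep2 1 h (p1t48), against 177 to 188 CPM at t0. Without GLABRA 2, the other 4 summed to 99.2 to 109.5 CPM with PpPep1 1 h and 91.3 to 116.3 CPM with PpPep2 1 h (p1t48), against 133.6 to 138.9 CPM at t0. None of these markers was at 0. At 48 h the 5 summed to 222 to 254 CPM with PpPep1 (p2t24) and 194 to 212 CPM with PpPep2, against 134 to 187 CPM with PpPep1 and 150 to 186 CPM with PpPep2 (p2t1) at 24 h. None of the 4 markers other than GLABRA 2 had an adjusted p under 0.01 at 1 h, and 2 with PpPep1 and all 4 with PpPep2 (p1t48) were lower at an unadjusted p under 0.05 (edgeR). At 48 h over 24 h, 3 of the 5 had an adjusted p under 0.01 and a higher level with PpPep1, and 1, GLABRA 2, with PpPep2. The part of these markers in the members' levels was not tested. In bulk leaf tissue, fewer cells of a type and less RNA per cell cannot be told apart. Of vascular markers, CESA4, a cellulose synthase subunit of secondary walls, was at 7.27 to 7.86 CPM at t0.

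Some members lie next to each other in the genome-ordered table. Of the 218 members, 39 (17.9%) had another member within 5 rows on the same chromosome, in 18 runs of up to 4 genes. PRUPE_3G180400 was in a run with PRUPE_3G180200, with a correlation of 0.96 over the 12 later libraries. PRUPE_5G065500 was in a run with PRUPE_5G065300, with a correlation of 0.09. The share for other sets of genes of this size was not counted, so this is no evidence of clustering. Genes in such runs can be related copies that share reads, with uncertain counts, but whether these are was not tested.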

How the data were processed

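Polyadenylated RNA of 21 leaf samples was sequenced as stranded read pairs. The deposited values are raw gene counts made by the authors with STAR 2.5.3a and RSEM 1.3.0 on the NCBIv2 peach genome, and per the labels DESeq2 1.20.0 followed. Members and lists were chosen with earlier results of these data known. Columns were matched to libraries by their total (0.963 to 0.982 of the read pairs assigned to single genes) and by the number of genes holding 25% of reads. The match was unique for 18 columns, and for 3 the library in the header was 1 of 2 that met both measures. No identifier matched the RefSeq table, and no gene sequence was used here.

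CPM is the count over the column total. Tests were robust quasi-likelihood F tests in edgeR 4.0.16 (R 4.3.3) on the deposited counts, with TMM scaling, filterByExpr, 1 model of 7 header groups, and Benjamini-Hochberg adjustment over 18586 genes, all 218 members among them. A gene was called at adjusted p under 0.01 and a log2 fold change beyond 1. Members were tested only in contrasts between groups the rule did not use, with the spread estimated over all libraries. List genes that are no members were also tested at 1 h against t0. The fit was tested on simulated data. Alternatives were DESeq2 1.42.0, RLE scaling, no filter, a replicate block, 2-group fits, other ratio limits and left-out libraries. Named were members that a source pairs with a name or that were on a fixed list, and 4 unnamed members chosen for the lowest mean of both 1 h ratios, for their adjusted p or for their t0 level. Precision is limited by 3 replicates per group. Replicates are described as biological.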

Additional observations from a re-analysis of the deposited data

How the results depend on the processing

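The number of members depended on the limits of the rule. A 1 h mean of at most 0.5 times t0 left 81 genes, a limit of 0.7 gave 565, and leaving out the columns headed p1t48 gave 377. Leaving out 1 of the 9 libraries gave 201 to 313 genes, the highest without t0 replicate 2. With TMM scaling the median log2 ratio to t0 was -0.040 for PpPep1 24 h and 0.30 for PpPep1 48 h (p2t24). With the members of the PpPep1 condition alone it was -0.051 for PpPep2 24 h (p2t1) and 0.13 for PpPep1 48 h (p2t24). With 1 library left out it ran from -0.20 to -0.08 for PpPep1 24 h, -0.036 to 0.058 for PpPep2 24 h (p2t1), 0.20 to 0.28 for PpPep1 48 h (p2t24) and 0.08 to 0.20 for PpPep2 48 h. The sign for PpPep2 24 h (p2t1) is therefore not settled.

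Calls between 24 and 48 h rose without the fold change limit, to 68 members for PpPep1 and 33 for PpPep2, against 16.9% and 12.5% of all genes. For PpPep2 the fit of the 2 groups alone called 4 of 218 members and 372 of 18180 genes. The share of members called was then no higher than that of all genes. For PpPep2 the 377 genes of the PpPep1 condition, an alternative added after seeing the data, held 15 called, against 2.28% of all genes. Leaving out 1 library gave 19 to 25 members for PpPep1 and 6 to 9 for PpPep2. The same fits called 594 to 636 genes for PpPep1 and 303 to 416 for PpPep2, of 18708 to 18747 tested. DESeq2 called 1 member between the peptides at 24 h, and leaving out 1 library gave 0 at 24 h and 0 at 48 h. With the replicate number as a block, 23 members were called for PpPep1 and 7 for PpPep2 between 24 and 48 h, and 0 between the peptides at each time. Between 24 and 48 h that fit called 658 of 18586 genes for PpPep1 and 425 for PpPep2. The numbers did not pair the samples: same-numbered libraries had correlations of their deviations between -0.25 and 0.16. The cause of these shifts was not tested. Direction held in all alternatives for the named members that passed.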
